A study of Mus musculus with 32 samples.

Results

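Neuropeptide signaling in the bladder wall was followed here through 10 genes, which encode peptide precursors, a granin and peptide receptors. The genes were chosen by name: Chga, Gal, Npy, Vip, Tac1 and Calca on the peptide side, and Galr2, Tacr1, Tacr2 and Oprk1 on the receptor side. They are 10 of the 32285 genes in the count table, and all 10 were found in it. The choice was made with earlier results of these data in view: Chga was known to be lower in middle-aged than in young bladders, and Galr2 to fall late, between middle and old age, so those values are a description and carry no test.

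The study sequenced total RNA from whole bladders of 32 female C57BL/6 mice to follow aging and a senolytic treatment, with each bladder a separate library. Untreated bladders came from 6 young mice (2 months), 5 middle-aged mice (10 months) and 6 old mice (26 months). A further 15 old mice (26 months) had been gavaged monthly on 3 consecutive days between 21 and 26 months, 5 with water, 4 with vehicle and 6 with D+Q, that is dasatinib at 5 mg/kg/day, a kinase inhibitor, with quercetin at 50 mg/kg/day, a plant flavonoid. No group carried a transgene or an allele that the others lacked, all mice were of the same sex, and the labels name no batch.

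Neuropeptides are cut from larger precursors, stored in dense-core vesicles and released from nerve endings onto G protein-coupled receptors on nearby cells. In the bladder, sensory fibers carry substance P, neurokinin A and calcitonin gene-related peptide (CGRP), parasympathetic and intramural neurons carry vasoactive intestinal peptide (VIP), and sympathetic fibers carry neuropeptide Y. The cell bodies of most of these neurons lie in dorsal root or pelvic ganglia, and precursor mRNA is found mainly in the cell body, whereas receptor mRNA is made in the target cells of the wall. In whole tissue, fewer cells of a type and less RNA per cell cannot be told apart.

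The promoters of the 4 genes past the threshold in an age comparison (Galr2, Tacr2, Tacr1 and Chga) are shown. They are the regulatory sequence next to those genes. RefSeq windows on GRCm38.p6 (mm10) ran from 250 bases before to 50 after each gene's RefSeq start. They were found for 9 of the 10 genes, all but Oprk1, and are written 5′ to 3′ along the gene. The gene spans given next follow the annotation used for counting, whose starts for Tacr1 and Chga differ from the RefSeq starts. The genes lie on chromosome 11, 116280939 to 116283938 (Galr2), chromosome 10, 62252438 to 62265990 (Tacr2), chromosome 6, 82402334 to 82560104 (Tacr1), and chromosome 12, 102554969 to 102565028 (Chga), and none of the 10 overlaps another annotated gene. Capitals mark TGACG, the core of the cyclic AMP response element, read on either strand (CGTCA when it lies on the other strand).
Galr2, chr11:116280689-116280988, plus strand: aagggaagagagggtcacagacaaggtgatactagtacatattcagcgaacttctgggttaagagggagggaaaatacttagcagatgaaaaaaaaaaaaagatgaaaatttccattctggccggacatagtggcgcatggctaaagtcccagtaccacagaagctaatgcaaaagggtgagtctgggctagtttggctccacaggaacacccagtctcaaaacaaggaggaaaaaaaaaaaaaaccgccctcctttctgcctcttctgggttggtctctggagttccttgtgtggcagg
Tacr2, chr10:62252188-62252487, plus strand: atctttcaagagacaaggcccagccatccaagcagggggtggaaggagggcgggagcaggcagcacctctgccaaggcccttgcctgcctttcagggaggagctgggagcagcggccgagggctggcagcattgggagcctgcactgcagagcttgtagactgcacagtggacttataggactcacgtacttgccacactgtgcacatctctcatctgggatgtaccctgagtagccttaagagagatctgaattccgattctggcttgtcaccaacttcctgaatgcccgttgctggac
Tacr1, chr6:82402225-82402524, plus strand: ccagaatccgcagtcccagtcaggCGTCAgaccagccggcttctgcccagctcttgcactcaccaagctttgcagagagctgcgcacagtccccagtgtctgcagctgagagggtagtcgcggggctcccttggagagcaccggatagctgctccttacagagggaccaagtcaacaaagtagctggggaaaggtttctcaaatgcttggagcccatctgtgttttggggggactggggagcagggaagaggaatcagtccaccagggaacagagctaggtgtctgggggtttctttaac
Chga, chr12:102554691-102554990, plus strand: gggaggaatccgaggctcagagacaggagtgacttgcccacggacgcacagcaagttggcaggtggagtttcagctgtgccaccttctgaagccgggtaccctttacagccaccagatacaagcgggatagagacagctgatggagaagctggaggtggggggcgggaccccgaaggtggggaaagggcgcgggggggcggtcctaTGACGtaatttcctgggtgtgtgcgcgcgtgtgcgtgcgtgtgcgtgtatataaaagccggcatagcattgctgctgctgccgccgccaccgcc
The letters TGACG stood in the windows of 6 of the 9 genes, Calca, Chga, Gal, Tac1, Tacr1 and Vip, and in 20.8% of all 32851 RefSeq windows of this length. In Chga they began 44 bases before the RefSeq start, and in Tacr1 226 bases before the RefSeq start. The full palindrome TGACGTCA, which contains TGACG, was in none of the 9 windows and in 1.79% of all. The GC box GGGCGG, read on both strands, was in 6 of the 9, among them Galr2, Tacr2 and Chga, and in 35.7% of all. A match of letters is a description and not a bound site.

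Between 15088372 and 52650259 reads per bladder were counted in genes, and no pair of libraries in a group held identical values. The tissue matched its label: the 6 smooth muscle markers summed to 24278 to 39019 CPM (counts relative to library size, scaled by TMM factors) and the 6 urothelial markers, uroplakins and keratins, to 3496 to 4694 CPM. Over all genes tested, edgeR's quasi-likelihood test with Benjamini-Hochberg adjustment called none between vehicle and untreated old, none between D+Q and untreated old and none between D+Q and vehicle, with 1464, 2200 and 722 genes at an unadjusted p under 0.05. DESeq2 called 132, 185 and 11 in the same comparisons.

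The receptor transcripts were present in every bladder and the peptide transcripts were at or near the detection floor in most. The 4 receptor genes had 27 to 972 counts in every one of 128 values (4 genes in 32 bladders). The 6 peptide-side genes had 0 to 23 counts, and 110 of their 192 values were at or under 3 counts, the floor used here, with 40 at 0. Levels were compared between genes per transcript length, in TPM (counts per base of gene length, scaled to the same sum in every library) computed from the deposited counts and gene lengths. Averaged over the 32 bladders, Tacr2 stood highest at 23.5 TPM, followed by Galr2 at 9.33, Tacr1 at 2.13 and Oprk1 at 0.837 TPM. Npy followed at 0.778 TPM, Calca at 0.232, Chga at 0.214, Vip at 0.142, Tac1 at 0.134 and Gal at 0.0453 TPM.

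The partner genes of these peptides and receptors were placed on the same scale. Npy1r, the Y1 receptor of neuropeptide Y, averaged 69.0 TPM over the 32 bladders, and Npy2r, the Y2 receptor usually found on nerve endings, 0.538 TPM. Calcrl and Ramp1, which together form the CGRP receptor, averaged 40.0 and 7.29 TPM, against 0.391 TPM for Calcb, the second CGRP precursor gene. Vipr1, a receptor of VIP and the related peptide PACAP, averaged 7.01 TPM and Vipr2 0.926 TPM, whereas Adcyap1, the PACAP precursor, had 10 counts in all 32 bladders together. Galr1 had 1 count in all, far below Galr2. Of these receptor genes, all but Galr1 and Npy2r lay above the peptide genes of their own system.

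**Figure D1:**
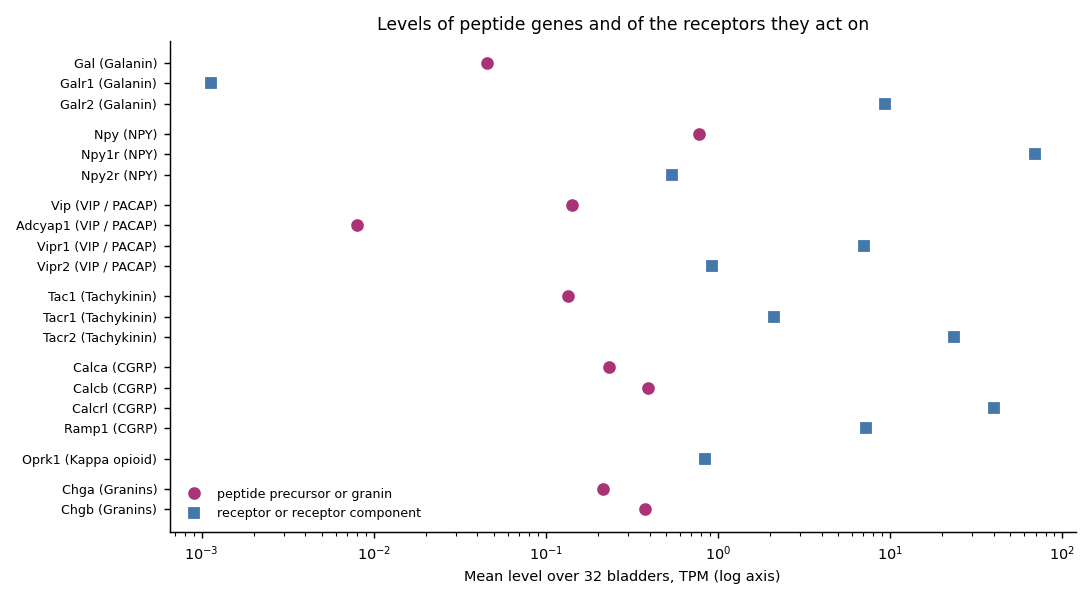
Mean TPM over 32 bladders (log horizontal axis) of peptide precursor and granin genes (circles) and of receptor genes or receptor components (squares), grouped by system. The squares reach 69.0 TPM at Npy1r, and every circle lies at or under 0.778 TPM (Npy).

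Gal, the precursor of galanin, a peptide of sensory and autonomic neurons, had 11 counts in the 32 bladders together and 0 counts in 24 of them. No bladder had more than 3 counts, and all 6 D+Q bladders were at 0. A count of 0 allows up to 3 counts, so no difference in Gal was detectable at this depth. Neither Gal nor Npy, Vip, Tac1 or Calca passed the filter on low counts in any comparison.

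Npy had 152 counts in all, Vip 161 and Calca 125. Npy counts ran from 0 to 10 in young, 0 to 6 in middle-aged, 2 to 15 in untreated old, 0 to 10 in water, 0 to 14 in vehicle and 2 to 18 in D+Q bladders. Vip counts ran from 0 to 11, 1 to 7, 1 to 23, 1 to 11, 0 to 11 and 0 to 11 in the same groups. The groups overlapped throughout for both genes. Calca, the precursor of CGRP and calcitonin, had 2 or 3 counts in each young bladder, 2 to 4 in each middle-aged bladder and 1 to 8 in untreated old bladders. In D+Q bladders Calca had 2 to 8 counts, in water 0 to 5 and in vehicle 0 to 10. Without the filter on low counts, edgeR gave adjusted p-values for old against young of 0.643 (Npy), 0.899 (Vip) and 0.82 (Calca).

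Tac1, the shared precursor of substance P and neurokinin A, had 7 counts summed over the 6 young bladders, 12 over the 5 middle-aged and 33 over the 6 untreated old bladders. The gavaged old groups had 35 (water), 29 (vehicle) and 31 (D+Q). Every young bladder had 0 to 3 counts, at or under the floor, and every untreated old bladder had 4 to 7. In CPM the young bladders reached at most 0.104 and all 6 untreated old bladders lay above them, at 0.112 to 0.198. Among the 15 gavaged bladders, 10 lay above every young bladder. Tac1 was not tested under the filter. With the filter removed, its fitted log2 fold change was 1.61 in untreated old against young (SE 0.48, edgeR adjusted p = 0.0324). In gavaged old against the same young bladders it was 1.94 (SE 0.64, edgeR adjusted p = 0.0365). Both values rest on the 7 counts of the young group, at or under the floor in each bladder, and are not read as tested.

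Chga encodes chromogranin A, a granin of dense-core vesicles in neurons and neuroendocrine cells. The 6 young bladders had 13, 14, 6, 12, 4 and 13 Chga counts, and the 5 middle-aged bladders had 3, 3, 2, 1 and 2. Untreated old bladders had 2 to 7 counts, water 0 to 6, vehicle 0 to 5 and D+Q 2 to 20. Young and middle-aged bladders did not overlap, and in CPM the untreated old, vehicle and water bladders reached only the lowest young bladder (replicate 5). Chga averaged 0.433 ± 0.192 (SD, n = 6) in young and 0.0665 ± 0.0298 CPM (SD, n = 5) in middle-aged bladders, a log2 fold change of -2.60 (SE 0.48). In the gavaged old against young, which share those young bladders, it was -1.93 (SE 0.45). Chga was not tested between untreated old and young, where it did not pass the filter. D+Q replicates 1 and 6, at 11 and 20 counts, stood above the other 4 at 2 to 4. Chgb, the second granin listed, averaged 0.467 ± 0.175 CPM in young, 0.243 ± 0.0811 in middle-aged and 0.206 ± 0.0988 in untreated old bladders, lower in untreated old than in young by a log2 fold change of -1.19 (SE 0.33, adjusted p = 0.0165). Untreated old bladders had 5 to 14 Chgb counts, below and above the filter's minimum count of 10. Chgb may have passed the filter there mainly through the young group, where it was higher. Its fold change in that comparison is given as a level and is not read as tested. Chgb missed the threshold in middle-aged against young (-0.96, SE 0.32, adjusted p = 0.0743), and it was not called in gavaged old against young.

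**Figure D2:**
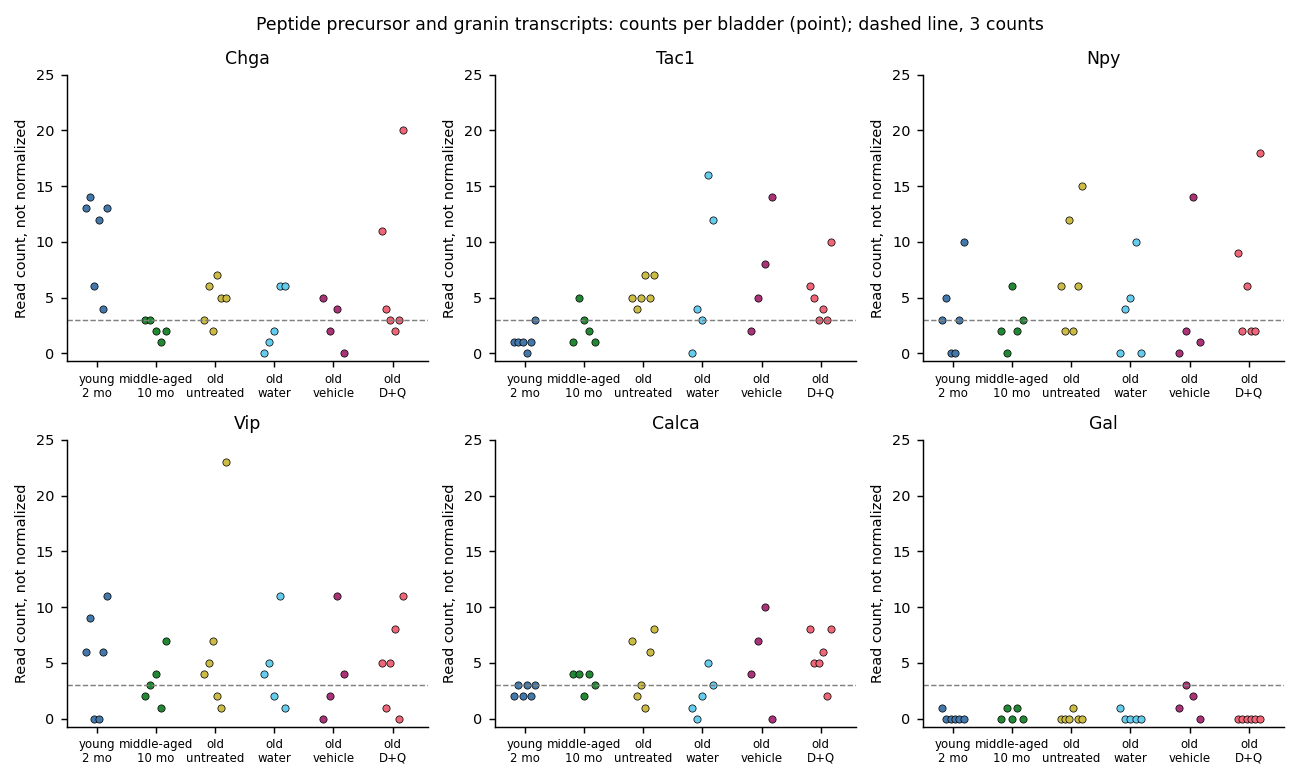
Unnormalized read counts (vertical axis) of Chga, Tac1, Npy, Vip, Calca and Gal in each bladder (point) by group, with the floor of 3 counts dashed. Young Chga points lie between 4 and 14 and middle-aged ones between 1 and 3. Gal does not exceed 3 in any bladder.

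Galr2, a receptor for galanin, was lower in every one of the 21 old bladders than in any of the 11 young or middle-aged ones. Its lowest, median and highest levels in young bladders were 7.20, 10.49 and 14.3 CPM. The middle-aged bladders were at 9.24, 7.76, 9.83, 8.62 and 10.6 CPM. Young and middle-aged bladders overlapped, with a log2 fold change of -0.19 (SE 0.15). The lowest, median and highest levels in untreated old bladders were 3.37, 4.81 and 6.54 CPM. The water bladders were at 3.21, 4.89, 6.04, 4.87 and 4.75 CPM, and the vehicle bladders at 4.44, 5.22, 5.73 and 3.99 CPM. The lowest, median and highest of the D+Q bladders were 4.40, 4.88 and 6.04 CPM. The 4 old groups overlapped one another, and none reached the lowest middle-aged bladder.

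The untreated old bladders had a Galr2 log2 fold change of -0.88 against middle-aged (SE 0.14) and -1.08 against young (SE 0.17). The 15 gavaged old bladders, set against the same young bladders, gave -1.11 (SE 0.12, 95% confidence interval -1.36 to -0.86), with 15 of 15 below every young bladder. All of these values are a description, since the gene was chosen on the young, middle-aged and untreated old bladders.

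Tacr2, the NK2 receptor for neurokinin A and the tachykinin receptor that mediates detrusor contraction in many species, was lower in old than in young bladders. Its lowest, median and highest levels were 13.9, 22.2 and 28.5 CPM in young bladders. The middle-aged bladders were at 14.2, 25.3, 20.5, 16.9 and 19.1 CPM. These 2 age groups overlapped almost fully, with a log2 fold change of -0.16 (SE 0.18, adjusted p = 0.623). The lowest, median and highest untreated old bladders were at 10.1, 14.3 and 17.9 CPM, and the D+Q bladders at 6.71, 12.1 and 13.9 CPM. The water bladders were at 12.5, 14.6, 14.0, 11.2 and 11.6 CPM, and the vehicle bladders at 7.66, 12.4, 13.1 and 14.7 CPM. Of the 21 old bladders, 13 lay below every young bladder and none above the highest.

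The Tacr2 log2 fold change of untreated old against young was -0.58 (SE 0.17, 95% confidence interval -0.95 to -0.21, adjusted p = 0.0248). That call was lost without any one of 4 bladders, young replicates 3, 5 and 6 and untreated old replicate 5, with adjusted p-values of 0.0525, 0.0555, 0.0542 and 0.0518. Gavaged old against young gave -0.83 (SE 0.15, adjusted p = 0.000352), called in all 26 alternatives. Untreated old against middle-aged gave -0.41 (SE 0.15) and missed the threshold (adjusted p = 0.0719), with an interval of -0.74 to -0.08.

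Tacr1, the NK1 receptor for substance P, went the other way and was higher in old than in young bladders. Its lowest, median and highest levels were 2.01, 2.91 and 3.26 CPM in young bladders, and the middle-aged bladders were at 2.91, 3.43, 4.29, 4.55 and 3.58 CPM. The lowest, median and highest untreated old bladders were at 3.74, 5.05 and 5.33 CPM. Young and untreated old bladders did not overlap, and the middle-aged bladders lay across the gap. The water bladders were at 3.47, 4.75, 3.15, 4.56 and 2.50 CPM. The vehicle bladders were at 5.10, 4.20, 4.70 and 3.57 CPM, and the lowest, median and highest D+Q bladders at 3.34, 4.78 and 5.70 CPM. Of the 21 old bladders, 19 lay above every young bladder, and the other 2 were water replicates 3 and 5.

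The Tacr1 log2 fold change of untreated old against young was 0.76 (SE 0.13, 95% confidence interval 0.48 to 1.05, adjusted p = 0.000893) and that of gavaged old against young 0.58 (SE 0.14, adjusted p = 0.00439), which share the young bladders. Every alternative kept both calls. The steps between neighboring ages missed the threshold, at 0.40 for middle-aged against young (SE 0.15, adjusted p = 0.104) and 0.37 for untreated old against middle-aged (SE 0.13, adjusted p = 0.0526).

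The opposite directions of the tachykinin receptors show in their ratio within each library, which does not depend on the scaling of the library. The ratio of Tacr2 to Tacr1 in TPM averaged 21.7 ± 4.33 (SD, n = 6) in young, 14.99 ± 3.88 (SD, n = 5) in middle-aged and 8.66 ± 1.91 (SD, n = 6) in untreated old bladders. It averaged 10.47 ± 2.65 in water (SD, n = 5), 8.16 ± 3.06 in vehicle (SD, n = 4) and 7.37 ± 2.69 in D+Q bladders (SD, n = 6). The young ratios ran from 15.7 to 27.6 and the ratios of the 4 old groups from 4.11 to 13.3, with no overlap. The ratio was formed after the levels were seen and was not tested.

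Oprk1, the kappa opioid receptor, had its highest group mean in middle-aged bladders. Its lowest, median and highest levels were 1.37, 1.90 and 2.57 CPM in young bladders, and the middle-aged bladders were at 3.01, 4.20, 3.05, 1.89 and 3.12 CPM. Of the 5 middle-aged bladders, 4 lay above every young bladder. The log2 fold change was 0.69 (SE 0.21, 95% confidence interval 0.24 to 1.14) and the adjusted p of 0.0505 missed the threshold. DESeq2 gave 0.0177, and without young replicate 4 or middle-aged replicate 4 edgeR gave 0.0243 and 0.021. The lowest, median and highest untreated old bladders were at 0.861, 2.21 and 3.13 CPM, and the 4 old group means lay between 1.82 and 2.35 CPM. The difference between untreated old and middle-aged was -0.48 (SE 0.28, adjusted p = 0.247). Pdyn, the precursor of dynorphin, the endogenous kappa ligand, had 47 counts in all, 0 of them in young bladders.

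**Figure D3:**
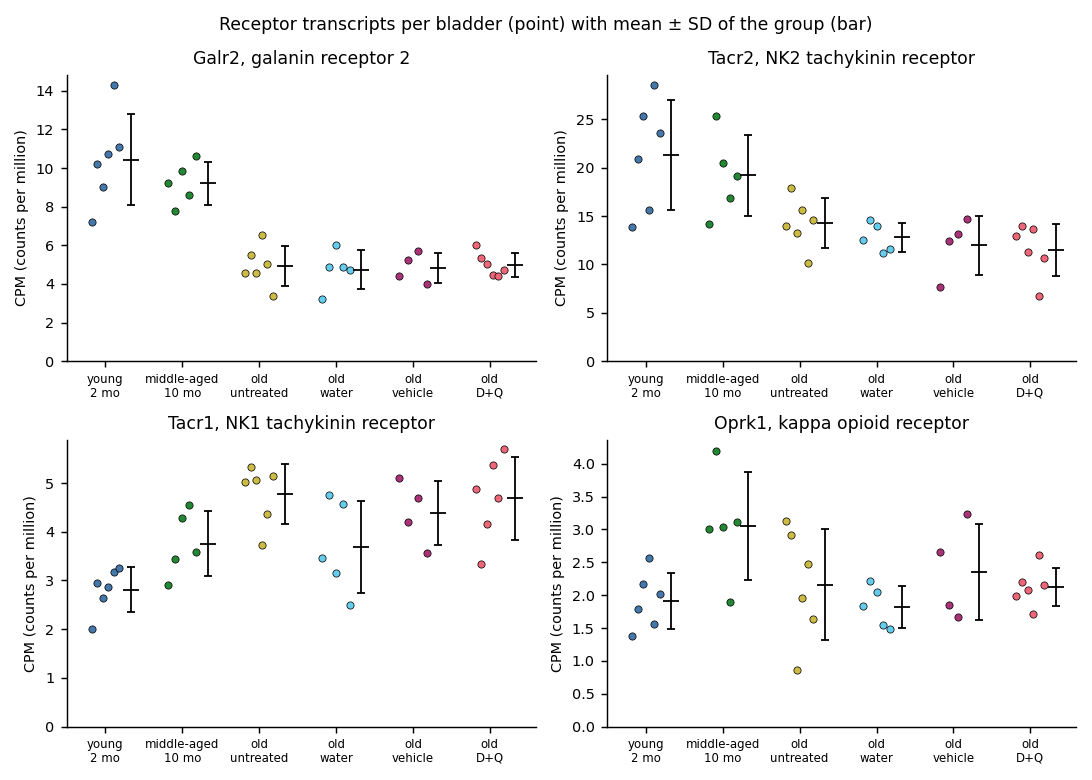
CPM (vertical axes from 0) of Galr2, Tacr2, Tacr1 and Oprk1 in each bladder (point), with the group mean ± SD beside the points. Galr2 points of the 4 old groups all lie at or under 6.54 CPM and those of the younger groups at or above 7.20 CPM. Tacr1 rises from a young mean of 2.81 to 4.78 CPM in untreated old bladders.

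In the age comparisons the number of members past the threshold was read against the share of all genes called. Middle-aged against young called 1 of the 5 members tested (Chga), where 10.8% of all genes tested were called. Untreated old against middle-aged called 1 of 4 (Galr2), with 24.0% of all genes called. Untreated old against young called 3 of 4 (Galr2, Tacr2 and Tacr1), with 25.1% called, and gavaged old against young 4 of 5 (those and Chga), with 29.4% called. Chga and Galr2 were chosen on such differences, so nothing is read from these counts.

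The gavage comparisons asked whether water, vehicle or D+Q changed these genes at 26 months. None of the 4 receptor genes, the members tested, passed the threshold in any of the 4 comparisons, where 1.0% of all genes were called between water and untreated old and 0% in the other 3. The 16 log2 fold changes ran from -0.38 to 0.11, and the lowest adjusted p was 0.293. For D+Q against vehicle, Galr2 differed by 0.05 (95% confidence interval -0.24 to 0.34), Tacr2 by -0.05 (-0.53 to 0.43), Tacr1 by 0.10 (-0.24 to 0.44) and Oprk1 by -0.13 (-0.57 to 0.31) on the log2 scale. The intervals of D+Q against untreated old were -0.28 to 0.32 for Galr2, -0.66 to 0.05 for Tacr2, -0.31 to 0.25 for Tacr1 and -0.55 to 0.49 for Oprk1. The Galr2 age difference of -1.11 in the gavaged bladders included the D+Q bladders and is a description, so the D+Q intervals are not read against it. The only unadjusted p under 0.05 was Tacr1 in water against untreated old, at -0.38 (SE 0.17, edgeR adjusted p = 0.293).

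**Figure D4:**
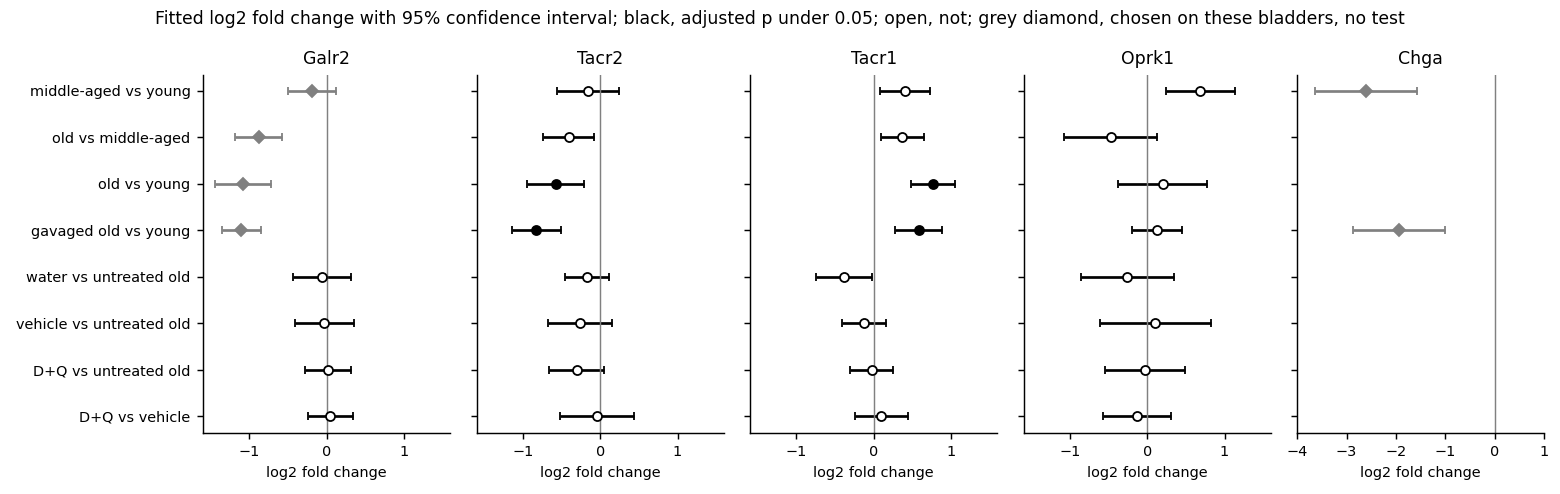
Fitted log2 fold change (horizontal axes) with its 95% confidence interval for Galr2, Tacr2, Tacr1, Oprk1 and Chga in each comparison (rows). Black points passed the threshold, open points did not, and grey diamonds mark values on which the gene was chosen or that share those bladders, with no test (all of Chga, and Galr2 in the 4 age comparisons). Tacr2 lies at -0.58 and -0.83 and Tacr1 at 0.76 and 0.58 in the old and gavaged old comparisons with young.

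Among the partner receptors, Npy1r, Calcrl, Ramp1, Vipr2 and Npy2r passed the threshold in no age comparison. Npy1r averaged 66.9 ± 9.39 CPM in young, 72.3 ± 10.2 in middle-aged and 69.2 ± 5.78 in untreated old bladders, with a log2 fold change of 0.05 between old and young (SE 0.09, adjusted p = 0.719). Calcrl, at 58.7 ± 19.6 and 60.5 ± 7.25 CPM in young and untreated old bladders, gave 0.04 (SE 0.18, adjusted p = 0.903), and Ramp1 gave 0.11 (SE 0.14, adjusted p = 0.643). Vipr1 was higher in gavaged old than in young bladders by 0.26 (SE 0.08, adjusted p = 0.0236), a call lost without any one of young replicates 1, 2, 5 and 6 and under limma. In untreated old against young it gave 0.18 (SE 0.10, adjusted p = 0.245). Vipr2, which overlaps Gm20658 on the other strand, gave 0.02 in gavaged old against young (SE 0.30, adjusted p = 0.961), and Npy2r gave -0.04 (SE 0.40, adjusted p = 0.948).

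The wider pathway was read from 132 other genes: 46 peptide precursors, 61 receptors and receptor components, 15 granins and genes of peptide processing and release, and 10 peptidases. Of these, 54 passed the filter in middle-aged against young bladders, and 7 were called, 1 higher and 6 lower (13% of those tested, beside 10.8% of all genes). In untreated old against middle-aged 5 of 55 were called, all higher (9.09%, beside 24.0% of all genes). In untreated old against young 12 of 52 were called, 4 higher and 8 lower (23.1%, beside 25.1%), and in gavaged old against young 17 of 65, 9 higher and 8 lower (26.2%, beside 29.4%). In the last 3 comparisons these shares were below that of all genes. The median log2 fold change of the tested pathway genes was 0.03 in untreated old against young, beside -0.0021 over all genes tested. In the 4 gavage comparisons none of the 53 to 57 tested was called.

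Among peptide precursors, Nts, the precursor of neurotensin, a peptide of gut and nerve, was lower in middle-aged than in young bladders and higher again in old ones. It averaged 1.75 ± 0.596 CPM in young, 0.36 ± 0.0458 in middle-aged and 0.797 ± 0.289 in untreated old bladders. The log2 fold change was -2.28 from young to middle age (SE 0.26, adjusted p = 0.000688) and 1.17 from middle to old age (SE 0.29, adjusted p = 0.0116). Gavaged old bladders were lower than young by -1.29 (SE 0.25, adjusted p = 0.000659). Cck, the precursor of cholecystokinin, and Ghrl, that of ghrelin, were higher in gavaged old than in young bladders by 0.36 and 0.65 (SE 0.13 and 0.24, adjusted p = 0.0468 and 0.0461). Both calls were lost without any one of 16 of the 21 bladders or under limma, with adjusted p-values up to 0.13 and 0.124, and Ghrl overlaps Gm26982 on the other strand. Neither was called in untreated old against young, at 0.05 for Cck (SE 0.17, adjusted p = 0.863) and 0.64 for Ghrl (SE 0.24, adjusted p = 0.0676).

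Among receptors, 4 of the called genes had under 10 counts, the minimum of the filter, in every bladder of the lower group, so they were tested only through the group where they were high and are given as levels. Ntsr1, a neurotensin receptor, averaged 0.586 ± 0.166 CPM in young bladders, with 5 to 21 counts each, and 0.123 to 0.169 CPM in the 3 gavaged groups, with 0 to 9 counts each. Npy5r, the Y5 receptor of neuropeptide Y, had 6 counts over the 6 young bladders and 44 to 61 in each gavaged group. Crhr1, a receptor of corticotropin-releasing hormone, had 14 counts over the young bladders and 77 to 82 in each gavaged group. Hcrtr2, an orexin receptor that overlaps Gm27234, had 0 to 9 counts in each young, 0 to 8 in each middle-aged and 10 to 24 in each untreated old bladder.

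Other receptors differed between gavaged old and young bladders. Oxtr, the oxytocin receptor, was lower by -0.63 (SE 0.19, adjusted p = 0.0149), Prokr1, a prokineticin receptor, by -0.51 (SE 0.17, adjusted p = 0.0305), and Adcyap1r1, the PACAP receptor, by -0.34 (SE 0.11, adjusted p = 0.0251). The Oxtr call was lost without young replicate 3, that of Prokr1 without young replicate 1, 2 or 6, and that of Adcyap1r1 without young replicate 1, 3 or 6. In untreated old against young, Prokr1 was called (-0.58, SE 0.18, adjusted p = 0.0288). Oxtr (-0.41, SE 0.22, adjusted p = 0.188) and Adcyap1r1 (-0.13, SE 0.10, adjusted p = 0.384) were not called there. Ramp2, a partner of Calcrl in the adrenomedullin receptor, was lower by -0.26 (SE 0.07, adjusted p = 0.0097), and it overlaps Vps25 on the same strand, so reads of both cannot be told apart in the overlap. Ramp3, another partner of Calcrl, rose from middle to old age by 0.60 (SE 0.13, adjusted p = 0.00476). Between untreated old and young bladders Ramp3 missed the threshold (0.30, SE 0.14, adjusted p = 0.144). Mchr1, a receptor of melanin-concentrating hormone, was lower in untreated old than in young bladders by -0.67 (SE 0.15, adjusted p = 0.00536), without overlap. Mchr1 was not called in gavaged old against young.

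Enzymes that cut peptides and a factor of vesicle release also differed with age. Cma1, which encodes a mast cell chymase, fell from 2.37 ± 0.295 CPM in young to 0.971 ± 0.0876 in middle-aged bladders. It stood at 0.446 to 1.06 CPM in the 4 old group means. Its log2 fold change was -1.30 in middle-aged against young (SE 0.15, adjusted p = 0.000684) and -1.69 in gavaged old against young (SE 0.20, adjusted p = 2.96e-06). Cpa3, a mast cell carboxypeptidase, was lower too, by -1.42 in middle-aged against young (SE 0.28, edgeR adjusted p = 0.008). In untreated old against young Cpa3 was lower by -1.53 (SE 0.29, edgeR adjusted p = 0.00169). A change in mast cell number was not tested. Ece2, an endothelin-converting enzyme, was lower in gavaged old than in young bladders by -0.93 (SE 0.21, adjusted p = 0.00228). Ace, angiotensin-converting enzyme, and Dpp4, which trims neuropeptide Y, were higher by 0.37 and 0.32 (SE 0.09 and 0.09, adjusted p = 0.00371 and 0.00829). Cadps2, a factor in dense-core vesicle release, was higher by 0.53 (SE 0.08, adjusted p = 2.86e-05) without overlap. Ace and Dpp4 overlap genes on the other strand (Gm11651 and Gm13561), and Cadps2 holds Rnf133 and Rnf148 on its own strand.

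**Figure D5:**
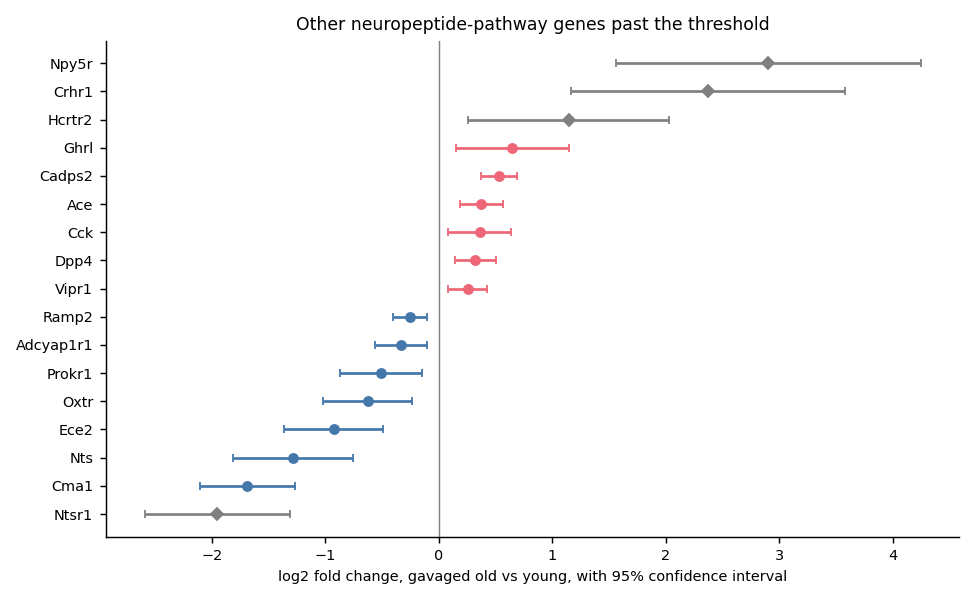
Log2 fold change in gavaged old against young bladders (horizontal axis) with its 95% confidence interval for the 17 of 65 tested pathway genes past the threshold, sorted by value. Circles run from -1.69 (Cma1) to 0.65 (Ghrl), and grey diamonds mark the 4 genes with under 10 counts in every bladder of the lower group (Ntsr1, Npy5r, Crhr1 and Hcrtr2), which are not read as tested.

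Markers of other cell types moved with age beside these genes. In untreated old against young bladders 3 of the 6 smooth muscle markers were lower (Acta2, Cnn1 and Smtn), 6 of 7 Schwann cell markers and 4 of 5 fibroblast markers were lower, and 4 of 6 immune markers were higher with 1 lower, the mast cell carboxypeptidase Cpa3. Of the skeletal muscle markers 3 of the 4 tested were lower, and 25.1% of all genes were called in either direction there. In untreated old against middle-aged, where Galr2 was lower and 24.0% of all genes were called, 3 of the 6 urothelial markers (Upk1a, Upk2 and Upk3a), 3 of 7 Schwann cell and 2 of 6 smooth muscle markers were lower and 4 of 6 immune markers were higher. The summed smooth muscle level ran from 24574 to 39019 CPM in young, 25391 to 35853 in middle-aged and 24278 to 34400 in the 4 old groups. The summed Schwann cell level ran from 71.3 to 103 CPM in young, 61.6 to 78.0 in middle-aged and 50.0 to 70.6 CPM in old bladders. Fibroblast markers summed to 10899 to 18914 CPM in young and 6969 to 8427 in old bladders, and immune markers to 51.7 to 203 and 79.7 to 326 CPM. None of these markers was at 0 in any group, and their part in the differences of Galr2, Tacr2 and Tacr1 was not tested. The 7 neuroendocrine markers summed to 6.42 to 9.34 CPM in young and 8.02 to 10.2 CPM in middle-aged bladders, between which Chga differed. None of the 4 of them tested between those ages was called, nor was any of the 6 urothelial markers, where 10.8% of all genes were called.

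The nerve markers that were called gave no common direction. Of the 14 listed, 7 were tested in untreated old against young bladders, with Stmn2 higher and Nefm lower (28.6%, beside 25.1% of all genes). In middle-aged against young, where Chga differed, 3 of 7 were called, Stmn2 higher and Syt1 and Nefm lower (42.9%, beside 10.8%). The median log2 fold change of those 7 was -0.41. The summed level of the 14 ran from 175 to 361 CPM in young, 294 to 324 in middle-aged and 195 to 268 CPM in untreated old bladders. Of the 8 adrenergic and cholinergic markers, 3 were tested in gavaged old against young, where 29.4% of all genes were called. There 2 were lower, the vesicular monoamine transporter Slc18a2 and the noradrenaline transporter Slc6a2. In untreated old against young and in middle-aged against young 0 of 2 were called. Untreated old against middle-aged called 1 of 3, Slc6a2, which was lower, beside 24.0% of all genes. In middle-aged bladders Chat, the acetylcholine-synthesizing enzyme, was at 0 counts.

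The genes most like each member were taken from the correlation, over 32 bladders and 18117 genes, of deviations from the group means of log2(CPM + 0.5), so that age and treatment did not set it. Tacr2 was followed most closely by Add2 (Pearson r = 0.789), Mybpc1 (0.762) and Mapt (0.742). Galr2 was followed by Stxbp6 (0.642), Sema5a (0.641) and Tnxb (0.635), and Tacr1 by Bst1 (0.696), Mirt1 (0.648) and Rasal1 (0.647). Oprk1 was followed by Srd5a1 (0.707), Slc4a9 (0.694) and Gm17690 (0.688). The 2 low-count members that passed the filter over all 6 groups, Npy and Chga, were followed by Snap25, Gpd1 and Lgals12 (0.840, 0.827 and 0.801) and by Prrt4, Endou and Tubb3 (0.679, 0.644 and 0.604). Among the members themselves the same measure gave 0.314 for Galr2 with Tacr2 and 0.090 for Tacr1 with Tacr2. All points of a pair come from the same libraries and share their depth and tissue makeup, and no test was made.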

How the data were processed

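Whole bladders of 32 mice were profiled by total RNA sequencing (TruSeq Stranded Total RNA kit). The authors aligned reads to mm10 with STAR 2.7.3 and counted them per gene with featureCounts of Subread, and deposited a table of raw counts with gene lengths. Whether strand was used in counting is not given in the sources used here. The deposited second table, named TPM, holds log2 values per the file contents: the logarithm of length-scaled counts plus 1, scaled to a sum of 100000, and it was recomputed from the counts exactly. Groups, ages and replicate numbers came from the sample labels. Each bladder is a separate mouse, and nothing says whether the groups were housed or handled apart, so p-values measure the spread between these bladders.

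Members, pathway lists, markers and tests were chosen with earlier results of these data known. Each of 8 comparisons was fitted on the raw counts with edgeR 4.0.16 (quasi-likelihood test, TMM factors, filterByExpr at a minimum count of 10) in R 4.3.3, using only the groups compared, and p-values were adjusted by Benjamini-Hochberg over all genes tested, with a threshold of 0.05. Gavaged old means the mean of the water, vehicle and D+Q groups. The standard error is the fold change divided by the root of F. Alternatives were DESeq2 1.42.0, no filter, the 6 groups fitted together, limma 3.58.1 on the deposited log2 values, a replicate block and leaving out each bladder (98 fits). The scripts were tested on simulated counts. CPM values use TMM factors over all 32 bladders. Levels between genes use TPM computed from counts and lengths. A count of 0 allows up to 3 counts, for counting error only.

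Genes were named by rule: the 10 members in each comparison, their partner genes (Calcb, Calcrl, Ramp1, Galr1, Npy1r, Npy2r, Vipr1, Vipr2, Adcyap1 and Chgb), in each comparison the 3 pathway genes with the largest change past the threshold without overlap, each pathway gene past it in the same direction in both age steps or in gavaged old against young, and the 3 genes most like each member. Pdyn was named after its values were seen. Symbols came from a reference table of gene identifiers, in which 32158 of 32285 were matched. Promoter windows came from RefSeq.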

Additional observations from a re-analysis of the deposited data

Results flagged for a closer look

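Npy in vehicle replicate 3 stood apart from its group, at 0.343 CPM (14 counts) against 0 to 0.0535 CPM (0 to 2 counts) in the other 3 vehicle bladders. Gal was flagged in young replicate 1, untreated old replicate 4 and water replicate 1, at 0.0371, 0.0283 and 0.0526 CPM, each from 1 count where the rest of the group had 0, which is under the floor of 3 counts. The gap between the farthest bladder and its nearest neighbor was taken relative to the range of the group. It was examined in 60 groups of values (10 genes in 6 groups). Chance flags about 1 in 20 groups of continuous values, a rate that does not hold for counts near the floor. A group with counts in only 1 bladder is always flagged, so the Gal flags carry no information.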

How the results depend on the processing

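Replicate numbers, taken from the sample titles, did not pair the bladders: over 73 same-numbered pairs the correlation of deviations ran from -0.342 to 0.2 with a median of 0.012, and 9 were above 0.1. The tables number some middle-aged, water and vehicle bladders differently, and pairing by those numbers was not tried. With the replicate block the genes called fell to 716 of the 1811 in middle-aged against young and to 0 of the 173 in water against untreated old, pathway genes called in middle-aged against young went from 7 to 3, and Tacr2 in untreated old against young lost its call (-0.56, adjusted p = 0.0595), as did Nts in untreated old against middle-aged (adjusted p = 0.0509) and Prokr1 in gavaged old against young. The block also turned Oprk1 in D+Q against untreated old to 0.0498 and Tacr2 in D+Q against vehicle to 0.156, and limma turned the former to 0.0513. A single fit of all 6 groups called 2858 genes in middle-aged against young, 2519 in place of 4110 in untreated old against middle-aged and 0 in water against untreated old, and 19 in place of 12 pathway genes in untreated old against young. DESeq2 called 3 in place of 1 member in untreated old against middle-aged (Galr2, and Tacr1 and Tacr2 at adjusted p = 0.0249 and 0.0307), and 703, 132, 185 and 11 genes in the 4 gavage comparisons (water, vehicle and D+Q against untreated old, D+Q against vehicle), with 1 pathway gene in the first. Its adjusted p for Chga in middle-aged against young was not defined. Without the filter on low counts 5 in place of 3 members were called in untreated old against young (Chga and Tac1 added) and 99 genes in water against untreated old, where limma called 0. The cause of these changes was not tested.

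Leaving out single bladders gave 0 to 2 members, 728 to 2794 genes and 4 to 9 pathway genes in middle-aged against young, 1 to 2, 3391 to 4097 and 4 to 7 in untreated old against middle-aged, 2 to 4, 3466 to 4540 and 9 to 12 in untreated old against young, and 4 to 5, 4233 to 5582 and 12 to 18 in gavaged old against young. In water against untreated old it gave 0 members, 37 to 199 genes and 0 to 1 pathway genes, and in the other 3 comparisons 0 of each. Chga did not pass the filter in middle-aged against young without young replicates 1, 2, 3, 4 or 6. In untreated old against middle-aged, Tacr1 passed the threshold without middle-aged replicate 4 or untreated old replicate 4, and Tacr2 without middle-aged replicate 1 or untreated old replicate 2. Signs turned in the gavage comparisons, 23 times in all: Galr2 ran from -0.156 to 0.0403 (water), -0.121 to 0.0659 (vehicle), -0.0708 to 0.117 (D+Q) and -0.0349 to 0.14 (D+Q against vehicle), Oprk1 from -0.0867 to 0.244, -0.185 to 0.108 and -0.267 to 0.0492 in the last 3, Tacr1 from -0.0886 to 0.0537 in D+Q against untreated old and Tacr2 from -0.217 to 0.0677 in D+Q against vehicle. No fold change of a member that passed the filter with every bladder kept turned sign in an age comparison. Npy, which did not pass it, was at -0.0221 in gavaged old against young in the fit of 6 groups. Without vehicle replicate 1, 2 or 4 it ran from 0.0327 to 0.121 there. Depth limits the peptide genes: with 0 to 23 counts per bladder, Gal, Vip and Calca passed the filter in no fit. Npy passed it in the fit of 6 groups and without single vehicle bladders (never called). Tac1 passed it in gavaged old against young without vehicle replicate 1, 2 or 3 (1.96 to 2.06). Chga passed it in untreated old against young without 7 of the 12 bladders (-1.96 to -1.61) and in the fit of 6 groups. Tac1 had 0 to 3 counts in each young bladder, and Chga 2 to 7 in each untreated old bladder. In these comparisons both genes entered the fit only through the group where they were high. Their calls there, included in the counts of members above, are not read as tested.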
